A study of Mus musculus with 2 samples.

Results

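The endoplasmic reticulum (ER) chaperone and stress genes are 36 genes whose products fold secreted and membrane proteins, remove those that misfold, or signal that misfolded protein has built up. They were chosen by symbol, and all 36 were found among the 23284 genes of the deposited table. RNA was sequenced from macrophages of infarcted hearts of C57BL/6 mice, 3 days after the left anterior descending coronary artery had been tied off. The series holds 2 libraries, 1 of Ly6Chi macrophages and 1 of Ly6Clo macrophages, named for the surface antigen Ly6C, which is high on classical monocytes and on macrophages recently derived from them. The labels name no genotype beyond the strain, and both libraries share the infarct and the day. They do not give the animals' age, the number of hearts behind a library or a sham-operated control, and RNA in a sorted population cannot separate fewer cells of a type from less RNA per cell.

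The table gives each gene a signed comparison statistic, a score with no stated unit, and a rank by its size. Its other columns hold values of single libraries under codes found in neither sample's labels. They were left aside, and levels, fold changes and depth were not analysed here. Neither sign can therefore be given to a population. Ly6c2, a gene of the sorted antigen, had -1.78 in the authors' deposited table and is given to mark the negative sign. Each population has a single library, so no difference has a replicate check or a p-value, and the values describe these 2 libraries. How the statistic weights abundance is not stated. Sizes of different genes and lists are therefore compared as scores only, and a larger size need not be a larger difference between the populations.

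Secretory cells meet a rising load of unfolded protein through the unfolded protein response. Its sensors are the kinase and nuclease IRE1 (gene Ern1), the kinase PERK (Eif2ak3) and the membrane-bound transcription factor ATF6. IRE1 splices Xbp1 mRNA and ATF6 is cut in the Golgi, and the resulting factors raise chaperone and degradation genes, many of them through the ER stress response element in their promoters. PERK slows translation and favours translation of ATF4, which switches on genes of amino acid supply and stress recovery, a branch it shares with the other kinases of the integrated stress response. In macrophages the response is known to be engaged by lipid loading and by Toll-like receptor signals.

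The ER genes lay with Ly6c2. Of the 36 members, 33 had a negative statistic and 3 a positive one in counts taken from the authors' deposited table, where 29.6% of all genes were negative and 42.3% of those with a value other than 0. At the tied value 2.42e-06, 59.6% of all genes lay lower and 36.8% higher. The genes counted as positive thus include ties just above 0, which lowers the 42.3%. The median of the members was -0.262, against 0 for all genes and 0.00512 for the 16302 genes with a value other than 0. The values were moderate in size. At a size of 0.5 or more, 1 member was negative and 1 positive, beside 0.988% and 3.77% of all genes. At 0.25 or more, 20 members were negative, beside 4.66% of all genes, and 2 were positive, beside 9.9%. Counted on both sides together, 2 members reached 0.5, 22 reached 0.25 and 0 reached 1, beside 4.76%, 14.6% and 0.773% of all genes. The 15 folding genes were all negative, from -0.468 to -0.227. The other 21, of which 18 were negative, ran from -0.594 for Ern1 to 0.694 for Herpud1.

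**Figure D1:**
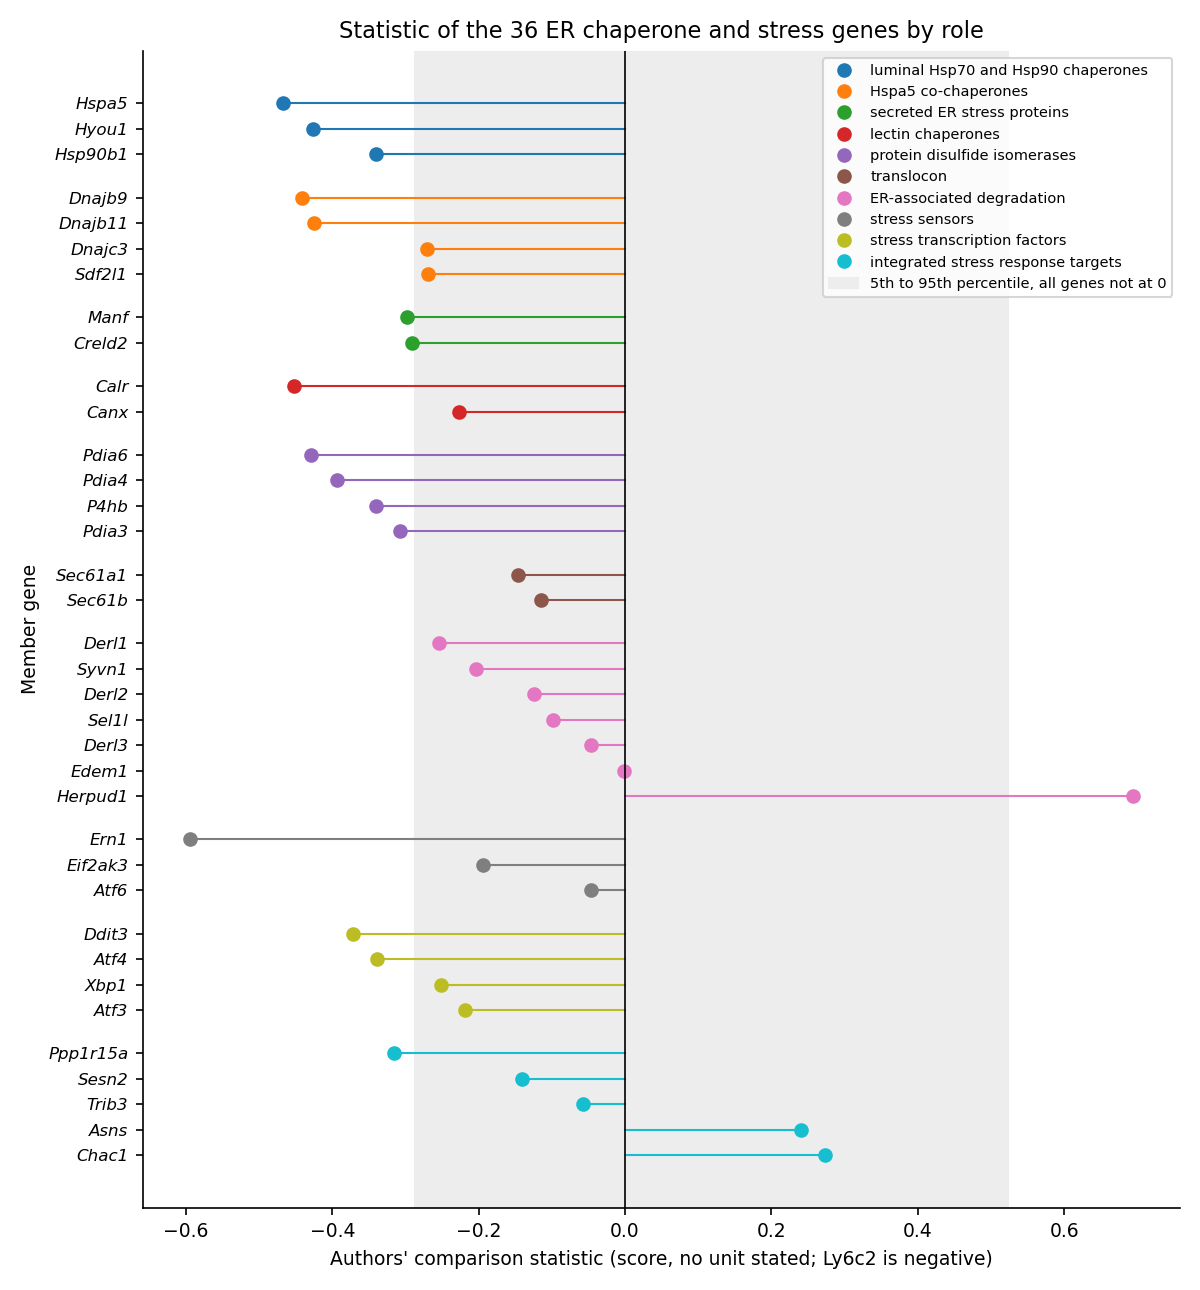
The authors' comparison statistic (horizontal axis, a score with no stated unit) of each of the 36 members, 1 point per gene, coloured by role; the grey band spans the 5th to 95th percentiles of the 16302 genes not at 0, from -0.287 to 0.524. The folding genes sit together at the left, Ern1 at -0.594 is the lowest and Herpud1 at 0.694 the highest.

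Among the folding groups the luminal chaperones had the lowest median, -0.427, and the disulfide isomerases followed at -0.367. Hspa5, the BiP chaperone that holds unfolded chains and keeps the stress sensors quiet, had a statistic of -0.468, rank 1265, in the authors' deposited table, and 1.19% of all genes lay lower. It lies on chromosome 2 from 34772090 to 34776529 (GRCm38.p6, the assembly of mm10). Hyou1, the exchange factor that resets BiP, had -0.427 in the authors' deposited table. Hsp90b1, the ER member of the Hsp90 family that folds Toll-like receptors and integrins, had -0.340 in the authors' deposited table. At most 2.48% of all genes lay lower than any of these 3.

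The partners of BiP were negative as well. Dnajb9, which brings BiP to misfolded clients and to IRE1, had -0.441, and Dnajb11, which binds chains as they emerge, had -0.425 in the authors' deposited table. Dnajc3, another J-domain partner, had -0.270, and Sdf2l1, which works in a complex with Dnajb11, had -0.269 in the authors' deposited table. Manf and Creld2, small ER proteins that are released from stressed cells, had -0.297 and -0.291 in the authors' deposited table. These 6 values lay closer to each other than to 0.

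The glycoprotein and disulfide machinery had like values. Calr, the soluble lectin chaperone calreticulin, had -0.453, and Canx, its membrane-bound relative calnexin, had -0.227 in the authors' deposited table. Canx was the folding gene nearest to 0. Among the protein disulfide isomerases, Pdia6 had -0.429, Pdia4 -0.394, P4hb -0.340 and Pdia3, the partner of the lectin chaperones, -0.307 in the authors' deposited table. P4hb is also a subunit of the collagen prolyl hydroxylase. Of 10 fibroblast markers, 8 were positive, among them the collagen chain genes Col1a1 and Col3a1 at 2.14 and 2.03 in the authors' deposited table. The 2 negative ones, named after their values were seen, were Pdpn at -1.02 and Fn1 at -0.537 in the authors' deposited table. A link between these values and that of P4hb was not tested.

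Most genes of entry into and removal from the ER had smaller values, with group medians of -0.131 and -0.0979, though Herpud1 had the largest size of the 36. Sec61a1 and Sec61b, subunits of the channel through which new chains enter, had -0.147 and -0.115 in the authors' deposited table. Derl1, a membrane protein of the retrotranslocation complex, had -0.254, and -0.125 and -0.0459 belonged to its relatives Derl2 and Derl3 in the authors' deposited table. The value of Derl3 is tied with that of another gene. The ubiquitin ligase gene Syvn1 had -0.203 and its adaptor gene Sel1l -0.0979 in the authors' deposited table. Edem1, which picks out glycoproteins for destruction, stood at -0.00118 in the authors' deposited table. Herpud1, a membrane scaffold of the same ligase complex, went the other way. Its statistic of 0.694 ranked at 521 in the authors' deposited table, and 1.95% of all genes lay higher.

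The sensors differed from one another. Ern1 had the lowest statistic of the 36, -0.594 with rank 788, in the authors' deposited table, and 0.554% of all genes lay lower. It lies on chromosome 11 from 106397620 to 106487796. Eif2ak3 had -0.194 and Atf6 -0.0461 in the authors' deposited table, so the members that encode the sensors ran from near the bottom of the list to near 0. The table has 1 row per gene, so spliced and unspliced Xbp1 mRNA were not separated here.

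All 4 transcription factor genes were negative. Ddit3, which encodes the factor CHOP, had -0.371, and Atf4 had -0.339 in the authors' deposited table. Xbp1 had -0.251 and Atf3, a stress-induced repressor and activator, -0.219 in the authors' deposited table. Their targets in the integrated stress response did not share a side. Ppp1r15a, which restores translation by dephosphorylating the initiation factor, had -0.315 in the authors' deposited table. Sesn2, an inhibitor of mTORC1 signalling, had -0.141 and the pseudokinase gene Trib3 had -0.0577 in the authors' deposited table. Chac1, which breaks down glutathione, had 0.273, and Asns, which makes asparagine, had 0.240 in the authors' deposited table. Asns and Chac1 were thus positive where Atf4 and Ddit3 were negative. The values of Chac1 and Trib3 are tied with those of other genes, and the reads behind them were not analysed here.

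Some of these rows may hold reads of a neighbour, since the strand setting of the counting is not given in the sources used here. By GENCODE M21, 7 members overlap a coding gene on the opposite strand (Manf, Pdia3, Pdia6, Syvn1, Derl2, Ddit3 and Ppp1r15a). The shared stretch was 18 bases for Pdia3, 50 for Pdia6, 68 for Ddit3 with Mars, 91 for Syvn1, 231 for Derl2 and 717 for Ppp1r15a with Tulp2. GENCODE gives Manf a longer span than RefSeq, on chromosome 9 from 106838312 to 106891979, and over that span it shares 42681 bases with Dcaf1 and 6511 on its own strand with Rbm15b. Rbm15b had -0.318 in the authors' deposited table, close to the value of Manf. The neighbours of the other 6 members all had higher values than those members. Mars had 0.134, Tulp2 0.0288, Mrpl49 -0.00730, Catsper2 -0.0613, Atp6v1c2 -0.0703 and Mis12 -0.0898 in the authors' deposited table. Sharing of reads between these rows was not tested.

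Promoter sequence was compared next, because the ER stress response element and the amino acid response element mark different branches of the response. RefSeq promoter windows of GRCm38.p6, running from 250 bases before to 50 bases after the annotated start, were matched by symbol for 31 members. Atf6, Derl1, Hyou1, Manf and Sec61a1 were not matched. Of the 31, 9 held an exact ER stress response element (ERSE, the letters CCAAT and CCACG 9 bases apart, both strands searched), beside 0.119% of all 32851 windows. Members were counted as genes and the background as windows. The element is known from genes of this kind, so its share among the members is not a result of these libraries. The matches are shown in the direction of the element, with its fixed ends in capitals and its free spacer in lower case. Among the folding genes with a window, Dnajb9, Dnajb11, Sdf2l1, Pdia3, Pdia4 and P4hb held no exact ERSE. Forward and reverse give its direction relative to the gene. The first 5 letters are a CCAAT box, which was also searched for alone and stood in the windows of 25 of the 31 members and in 37.4% of all windows.
Calr, chr8:84847075-84847093, reverse: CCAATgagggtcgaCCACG
Canx, chr11:50325800-50325818, forward: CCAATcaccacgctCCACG
Creld2, chr15:88819520-88819538, reverse: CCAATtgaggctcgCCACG
Derl3, chr10:75893242-75893260, reverse: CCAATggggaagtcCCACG
Dnajc3, chr14:118937827-118937845, forward: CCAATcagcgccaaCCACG
Hsp90b1, chr10:86705638-86705656, forward: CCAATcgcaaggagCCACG
Hsp90b1, chr10:86705533-86705551, reverse: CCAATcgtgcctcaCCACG
Hspa5, chr2:34772025-34772043, forward: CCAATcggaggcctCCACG
Pdia6, chr12:17266491-17266509, forward: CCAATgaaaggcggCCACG
Syvn1, chr19:6046532-6046550, forward: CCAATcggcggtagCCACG

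Hsp90b1 held 2 such elements in opposite directions. Of these genes 9 of 9 were negative, with a median of -0.291 computed from the authors' deposited table. Pdia6, Calr and Hspa5 had the 3 lowest values of the set, and Derl3 the highest. The exact element in Hspa5 runs from -65 to -47, counted from the start site. The 250 bases before that start, chr2:34771840-34772089 on the plus strand, show it in capitals.
Hspa5: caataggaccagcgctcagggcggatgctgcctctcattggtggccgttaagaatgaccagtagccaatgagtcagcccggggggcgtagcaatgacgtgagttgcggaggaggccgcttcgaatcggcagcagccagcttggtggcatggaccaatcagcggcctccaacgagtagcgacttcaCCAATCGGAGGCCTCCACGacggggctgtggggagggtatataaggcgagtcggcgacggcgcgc

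The shorter ERSE-II (ATTGG and CCACG with 1 base between) stood in the windows of Dnajb11 and Herpud1 and in 0.0365% of all windows. Below it is in capitals except for its free base, with 8 flanking bases on each side.
Dnajb11, chr16:22857852-22857862, forward: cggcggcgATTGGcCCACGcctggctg
Herpud1, chr8:94386377-94386387, forward: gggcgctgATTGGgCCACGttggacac

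The core of the amino acid response element (TGATGNAA), a site class bound by ATF4 with partner factors, stood in 5 of 31 member windows and in 3.97% of all windows. It is written below in its own direction in the same way.
Asns, chr6:7693225-7693232, forward: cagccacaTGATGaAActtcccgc
Atf3, chr1:191183436-191183443, reverse: ggacttggTGATGcAAgtgcgaga
Chac1, chr2:119351049-119351056, reverse: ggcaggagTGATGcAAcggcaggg
Herpud1, chr8:94386317-94386324, reverse: gtgcgggcTGATGcAAcccgccgt
Trib3, chr2:152344039-152344046, reverse: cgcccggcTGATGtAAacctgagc

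The positive members were all in this set. Of its 5 genes, Herpud1, Chac1 and Asns were positive and Atf3 and Trib3 negative, and the median was 0.240 computed from the authors' deposited table. The values of Chac1 and Trib3 are tied ones. Herpud1 was the only member with both kinds of element. In its upstream sequence, chr8:94386179-94386428 on the plus strand, the first run of capitals is the amino acid response element core, which reads in reverse there, and the second is ERSE-II.
Herpud1: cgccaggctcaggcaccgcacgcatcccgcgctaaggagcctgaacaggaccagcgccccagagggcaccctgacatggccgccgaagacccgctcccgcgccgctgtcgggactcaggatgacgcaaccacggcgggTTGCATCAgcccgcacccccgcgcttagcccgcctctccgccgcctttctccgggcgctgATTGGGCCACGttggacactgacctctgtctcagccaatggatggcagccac

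The 10 members with ERSE or ERSE-II and no amino acid response element core were all negative, with a median of -0.316, and so were the 16 members with neither, with a median of -0.288, both computed from the authors' deposited table. Among members with a window but no amino acid response element core, those with and those without an exact ER stress element match thus lay on the same side. Herpud1, with both elements, was positive. The core of the XBP1-type element (TGACGTGG) stood in none of the member windows and in 0.676% of all windows. The cAMP response element (TGACGTCA) stood in that of Ppp1r15a and in 1.79% of all windows. Outside the list the same letters stood in genes of both signs. Of 15 other genes of the table with an exact ERSE, 2 were negative, 7 positive and 6 at 0. Named after their values were seen, Zfp57 at 2.42e-06 and Adcy3 at 0.00596 in the authors' deposited table were among the 7. Of 617 other genes with the amino acid response element core, 126 were negative, 197 positive and 294 at 0. Levels were not analysed here, so genes with few reads were not set apart. A match of letters is a description of sequence and not a bound site. The lack of an exact match in the window does not show that no such element is present.

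**Figure D2:**
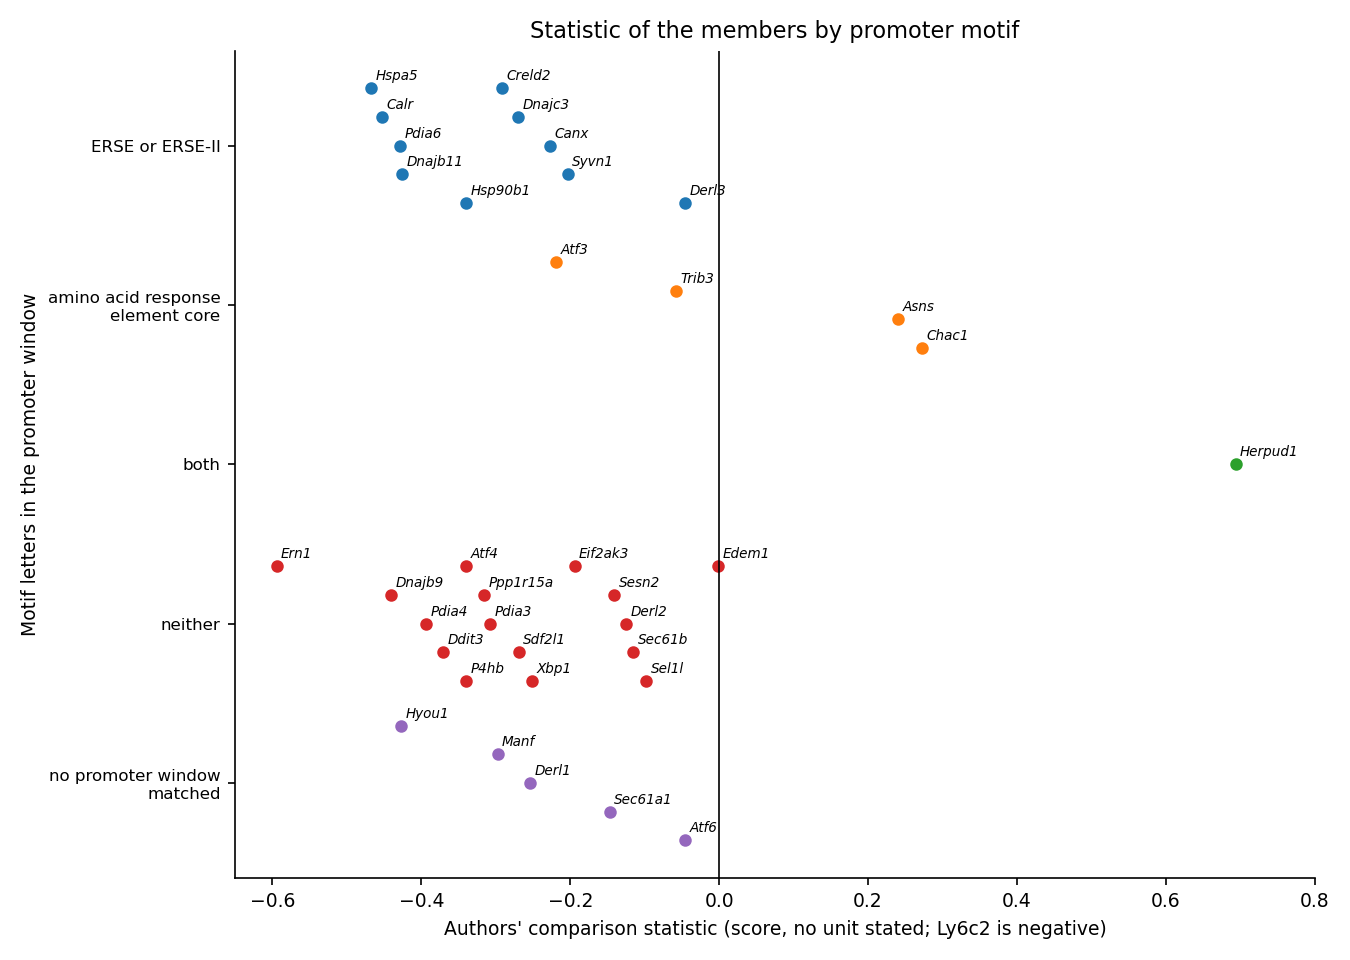
The authors' statistic (horizontal axis, a score with no stated unit) of the 36 members, 1 labelled point per gene, by the elements found in their promoter windows; vertical spread within a row only separates labels. The 3 positive members, Asns, Chac1 and Herpud1, are in the rows with an amino acid response element core, and the 10 genes of the top row run from -0.468 to -0.0459.

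Other genes of the secretory pathway, listed by role, lay on the same side with smaller values. Across 5 lists with 91 genes, 74 were negative and 17 positive, with a median of -0.108 computed from the authors' deposited table, against -0.262 for the members. Of 19 genes of targeting and translocation, 18 were negative with a median of -0.119, led by the signal peptidase subunit gene Spcs1 at -0.196, the translocon-associated gene Ssr4 at -0.187 and the signal recognition particle receptor gene Srpr at -0.165 in the authors' deposited table. Of 18 further degradation genes, 15 were negative with a median of -0.116. The selenoprotein genes Selk and Vimp, listed as H47, had -0.333 and -0.329, and Vcp, the ATPase that pulls substrates into the cytosol, -0.227 in the authors' deposited table.

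Export genes reached the lowest value of these lists. Of 18 genes of retrieval and export in COPII vesicles, 16 were negative with a median of -0.119 computed from the authors' deposited table. Mcfd2, which carries clotting factors out of the ER with Lman1, had -0.953, lower than any member, and the cargo receptor gene Surf4 and coat gene Sec24d had -0.373 and -0.372 in the authors' deposited table. Of 22 other folding and redox enzymes, 15 were negative and 7 positive with a median of -0.0203, and Erp44, Fkbp2 and the oxidase gene Ero1l had -0.270, -0.257 and -0.210 in the authors' deposited table. Of 14 N-glycosylation genes, 10 were negative with a median of -0.0476, and Rpn1 and Stt3b, subunits of the oligosaccharyltransferase, had -0.251 and -0.171 against 0.158 for the glucosidase gene Mogs in the authors' deposited table. None of these 5 lists had a positive gene at 0.5 or more.

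**Figure D3:**
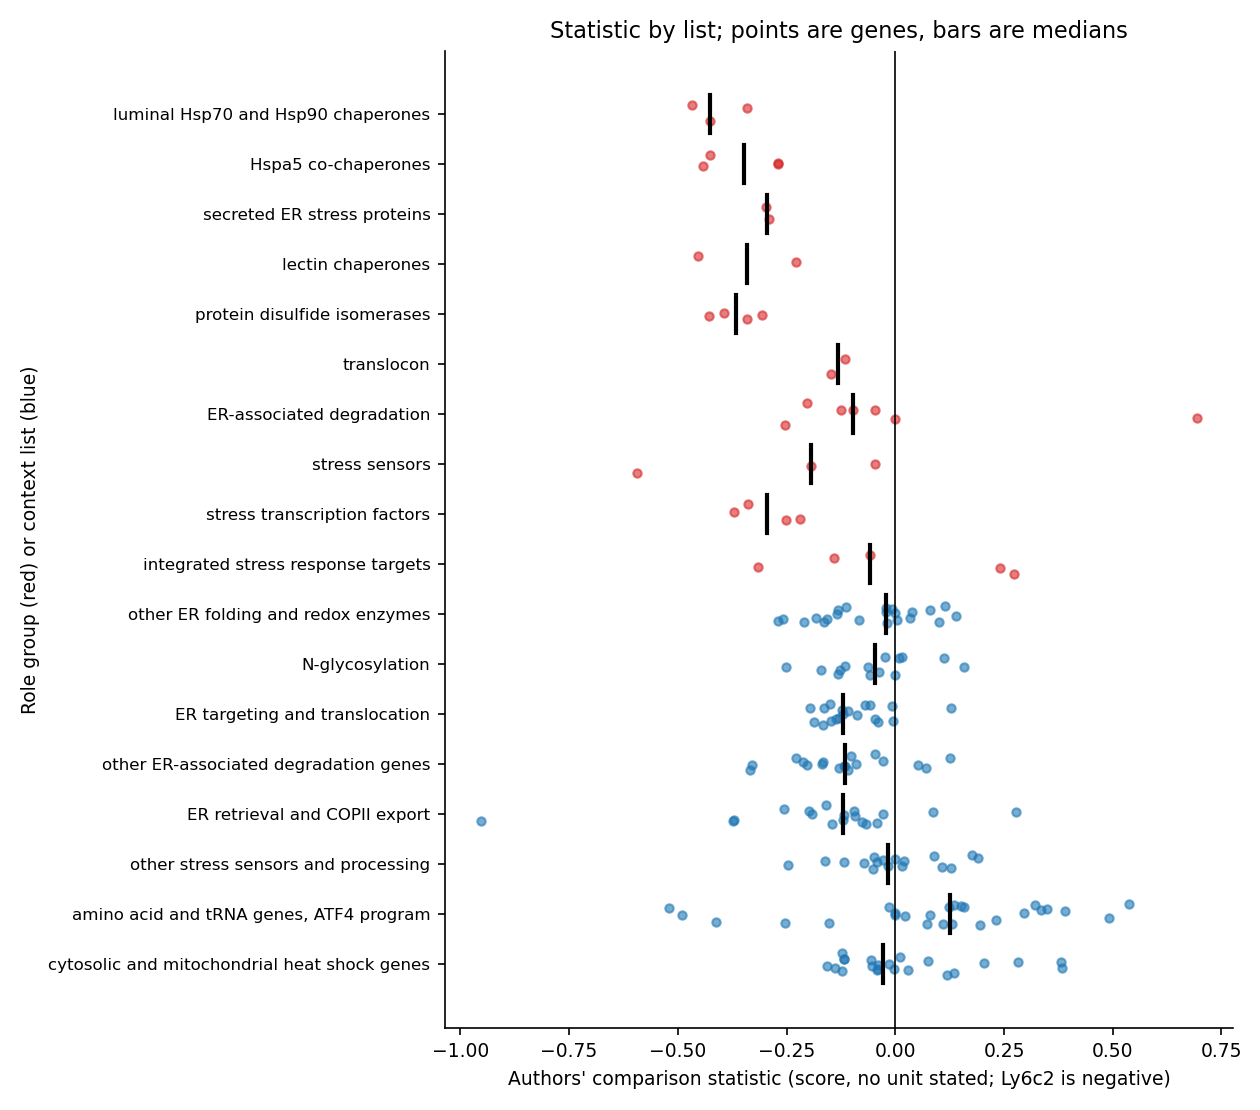
The authors' statistic (horizontal axis, a score with no stated unit) by role group of the members (red) and by list of related genes (blue), with 1 point per gene and a black bar at the median. Medians of the red folding groups lie between -0.427 and -0.294, those of the blue secretory lists between -0.119 and -0.0203, and that of the amino acid and tRNA genes at 0.126.

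The amino acid branch lay mostly on the other side. Of 26 genes of amino acid supply, tRNA charging and related ATF4 targets, 19 were positive, 6 negative and 1 at 0, with a median of 0.126 computed from the authors' deposited table. The 19 include Cth at 2.42e-06 and Vldlr at 0.0719 in the authors' deposited table, both named after their values were seen. Each of these values is shared by other genes. Positive genes were 40.4% of the whole table and 57.7% of those with a value other than 0. Ddit4, an inhibitor of mTORC1 that also answers hypoxia and glucocorticoids, led with 0.537 in the authors' deposited table. The cystine transporter genes Slc7a11 and Slc3a2, whose products form 1 exchanger, had -0.520 and -0.491 in the authors' deposited table and so lay with the chaperones. Chosen after their values were seen, the serine and one-carbon genes Mthfd2, Phgdh and Shmt2 had 0.389, 0.348 and 0.336 in the authors' deposited table. Chosen likewise from the negative side, Vegfa and Aars had -0.412 and -0.253 in the authors' deposited table. At a size of 0.25 or more, 7 of the 26 were positive, beside 9.9% of all genes, and 4 negative, beside 4.66%. Among 9 tRNA synthetase genes of the list, 6 were positive and 3 negative (median 0.0788).

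**Figure D4:**
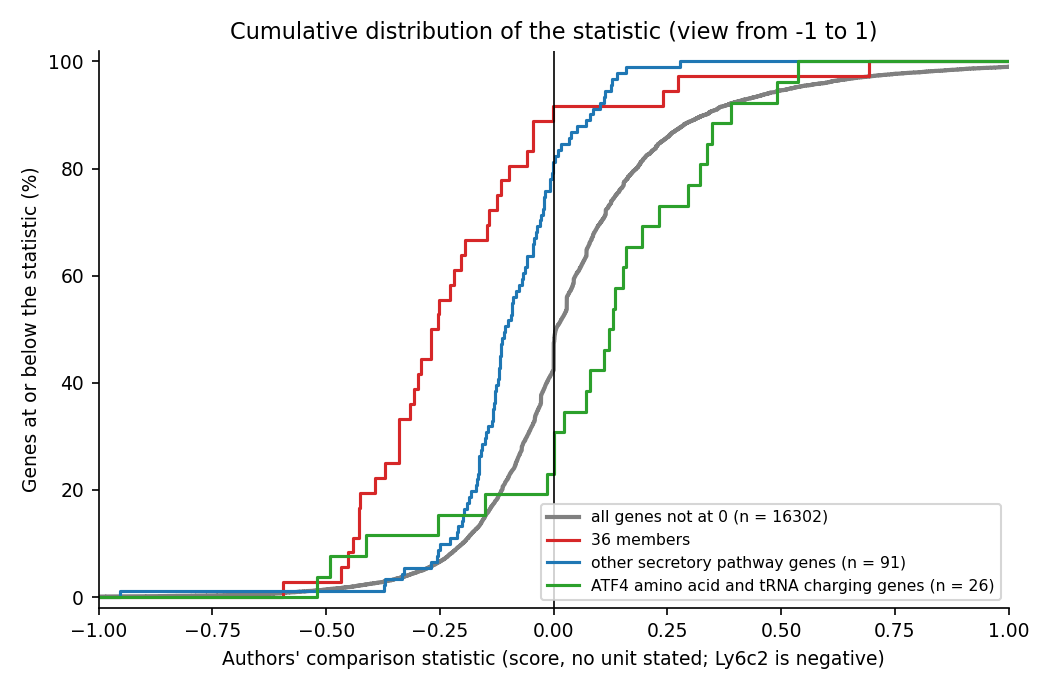
Percent of genes (vertical axis) at or below each value of the authors' statistic (horizontal axis, a score with no stated unit, shown from -1 to 1) for the members, 91 other secretory pathway genes, 26 amino acid and tRNA genes and all 16302 genes not at 0. The curve of the members lies left of that of all genes over most of its course, with a median of -0.262, and that of the amino acid and tRNA genes lies right of it around its median of 0.126.

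Markers of cell types and of cell division also had sides. Of 8 classical monocyte markers, 7 were negative with a median of -1.14, led by Thbs1, Chil3, listed as Chi3l3, and Ly6c2 at -1.89, -1.86 and -1.78 in the authors' deposited table. Macrophage markers were divided, 6 negative and 4 positive, with Fcgr1, Cd68 and Lyz2 at -0.786, -0.682 and -0.528 in the authors' deposited table. On the positive side, C1qa stood at 0.337, C1qc at 0.280, Csf1r at 0.248 and C1qb at 0.142 in the authors' deposited table. These 4 were named after their values were seen. Dendritic cell markers were positive in 10 of 10 cases with a median of 1.73, led by Ccr7, H2-Eb1 and H2-Ab1 at 2.84, 2.52 and 2.32 in the authors' deposited table. Fibroblast markers were positive in 8 of 10 cases with a median of 1.19, and cell division genes in 9 of 9 with a median of 1.15, led by Mki67, Top2a and Ccna2 at 1.63, 1.55 and 1.26 in the authors' deposited table. Levels of these markers were not analysed here, so the labelled cell type was not checked by them, and the part of these cells in the statistics of the ER and amino acid genes was not tested.

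Plasma cells have a large ER and were listed for that reason. Among their markers and those of B cells, Jchain, listed as Igj, was at 0 and Tnfrsf17 at 2.42e-06 in the authors' deposited table. Of the 8 markers in this list, 5 were positive, 2 negative and 1 at 0, with a median of 0.0144. The 3 of largest size were Sdc1 at -0.389, Cd79b at -0.242 and Cd79a at 0.196 in the authors' deposited table. Endothelial markers were negative in 6 of 8 cases, led by Kdr, Cdh5 and Vwf at -0.569, -0.457 and -0.220 in the authors' deposited table. Cardiomyocyte markers were positive in 8 of 8, led by Tnnt2, Actc1 and Ryr2 at 0.529, 0.271 and 0.212 in the authors' deposited table. Positive genes were 40.4% of all genes and 57.7% of those with a value other than 0. All of these cardiomyocyte markers except Tnnt2 had values tied with those of other genes, and the reads behind them were not analysed here. Neutrophil markers had a median of 0.0585, with Mmp8 at -0.998 against S100a8 at 0.544 and S100a9 at 0.446, and T and NK cell markers a median of 0, with Cd4, Cd8a and Cd3d at 0.219, 0.107 and -0.0812 in the authors' deposited table.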

How the data were processed

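Macrophage RNA from infarcted mouse hearts was sequenced in 2 libraries, 1 per population. CASAVA 1.8.2 and TopHat were used with build mm10, per the submitters' processing notes; counting program, annotation and strand setting were each not given in the sources used here. Both the statistic and the ranking are scores that the authors deposited, with no unit stated per the file headers, and how the statistic weights abundance is not stated. Ranks recomputed from its size matched the deposited ranks within 0.001 for all 23284 genes. The 2 columns of values per library match no sample label and were not used, so no values per library were scaled and depth and precision are unknown. The members and lists were chosen with earlier results of these data known.

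All members were described, with up to 3 genes of largest size per other list, matched by symbol or a single older symbol, plus genes said to be chosen later. Counts at a size of 0.5 have no error rate. Coordinates and promoters come from RefSeq for GRCm38.p6 and overlaps from GENCODE M21. Motifs were searched as exact letters on both strands, and the search was tested on simulated data. Protein features, planned earlier, were not analysed here, 1 listed marker gene is not reported here and 3 more were not matched. Alternatives were sizes of 0.25 and 1, means, signed ranks, a minimum size of 0.1 and, chosen after seeing the data, centring. Work was done in Python 3.11.15 with pandas 2.3.3, NumPy 2.4.6 and SciPy 1.17.1, and figures were drawn with Matplotlib 3.10.9.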

Additional observations from a re-analysis of the deposited data

How the results depend on the processing

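No paired analysis was possible because there is 1 library of each kind, for which no replicate can be dropped either. Of 36 members, 2 reached a size of 0.5, 22 a size of 0.25 and 0 a size of 1, so the count follows the size chosen. The median of the members was -0.262 as deposited, -0.214 as a mean, -0.291 with a minimum size of 0.1 and -0.267 after centring on the median of all genes not at 0, an alternative chosen after seeing the data that left 33 members negative. On ranks by size carrying the sign, the median was -2652. With means in place of medians, 7 of the 8 lists with at least 10 genes kept their sign and stayed within the binomial interval of the median; in smaller lists that interval spans the whole range, and with 2 genes mean and median are equal. The cytosolic and mitochondrial heat shock genes went from -0.0274 to 0.0269. The mean of the degradation members was -0.00471 against a median of -0.0979, and that of the integrated stress response targets -0.000336 against -0.0577. The tables used give no depth, so the precision of single genes near 0 is unknown.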

Other observations

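The heat shock genes of the cytosol and mitochondria, which fold proteins outside the ER, lay near 0. Of 22 genes, 13 were negative and 9 positive, where 42.3% of genes with a value other than 0 were negative. Their median was -0.0274 and their mean 0.0269, of opposite sign, both computed from the authors' deposited table. The inducible chaperone genes Hspa1a and Hspa1b, close paralogs whose reads the counting could split, had 0.383 and 0.381, and the small heat shock gene Hspb1 had 0.282 in the authors' deposited table. No gene of the list was at or below -0.25, beside 4.66% of all genes, and 3 were at or above 0.25, beside 9.9%. With so small a share of all genes at or below -0.25, the lack of such genes among 22 does not set the list apart. Of the 15 ER folding members, 14 were at or below -0.25. Other kinases and factors of the stress response were divided as well. Of 17 such genes, 9 were negative, 7 positive and 1 at 0, with a median of -0.0166. Cebpb, a partner of ATF4, had -0.247, while the cell death gene Bbc3 had 0.191 and the ligase gene Rtcb, listed as D10Wsu52e, which joins the ends of spliced Xbp1 mRNA, had 0.175 in the authors' deposited table.

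Among genes outside the lists whose windows hold an exact ERSE, named after their values were seen, the glycosylation gene Alg12 had -0.227 and Spats2l had 0.362 in the authors' deposited table. Calr4, a relative of Calr with an exact ERSE of its own, was at 0 in the authors' deposited table. The ERSE-II genes Nucb1 and Krtcap2 had -0.104 and 0.0391 in the authors' deposited table.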
